A study of Homo sapiens with 4 samples.

Results

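The epidermal differentiation complex is a run of genes on human chromosome 1q21 that build the outer layer of the skin. It was examined here in the human neuroblastoma line SK-N-SH, whose cells grow attached to the dish. The members were all features of the array table on chromosome 1 with exactly 1 gene symbol of the LCE, SPRR or S100A families or of 15 named neighbours (FLG, FLG2, HRNR, RPTN, TCHH, TCHHL1, CRNN, LORICRIN, IVL, LELP1, KPRP, SMCP, PGLYRP3, PGLYRP4 and KPLCE). The rule found 61 features, each for a different gene, of 13493 features in all. Of the 61, 17 were S100A genes and 44 were other genes, called keratinocyte-type members here although SMCP, PGLYRP3 and PGLYRP4 have other known roles. The region was chosen by values of this same comparison, the lower signals of KPLCE, LELP1 and SPRR2F after TCDD, which were known before. All changes between TCDD and DMSO are therefore given as descriptions and carry no test of their own.

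There were 2 arrays of cells exposed for 24 h to the dioxin TCDD at 1e-10 M, and 2 arrays of cells given the solvent dimethyl sulfoxide (DMSO), which the TCDD cells also received. The labels name no genetic change in these cells, and the arrays within a group are titled as biological replicates. Values are log2 signals that the authors made with RMA, a method that corrects background, normalizes probes and summarises them per feature. With 2 arrays per group the number of arrays limits the precision of every value.

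Cells of the epidermis fill with keratin, then replace their membrane with the cornified envelope, a shell of proteins cross-linked by transglutaminases. Involucrin (IVL), loricrin, the small proline-rich proteins (SPRR) and the late cornified envelope proteins (LCE) are its building blocks. Filaggrin and its relatives bundle keratin and hold water in the outer layer. The S100A genes at both ends of the region encode small calcium-binding proteins, several of them used by many cell types. TCDD binds the aryl hydrocarbon receptor (AhR), and in human keratinocytes AhR ligands are known to speed up terminal differentiation and to raise genes of this region. Neuroblastoma cells do not form a cornified envelope.

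The arrays did not vary equally. The SD of the difference over all features was 0.0855 between the TCDD arrays and 0.132 between the DMSO arrays. The interquartile range of the signals was 2.21 and 2.20 on the TCDD arrays, against 2.13 and 2.00 on DMSO arrays 1 and 2. Of 8 listed noradrenergic neuroblastoma markers 4 were measured, HAND1, HAND2, GATA2 and ISL1, with mean signals of 10.91 to 11.54. Of 8 mesenchymal-type neuroblastoma markers 5 were measured, with mean signals of 8.50 to 12.15. Both TCDD arrays lay above both DMSO arrays for 5 of the 5 mesenchymal-type markers, with a median change of 0.22, and for 3 of the 4 noradrenergic ones. That order held for 40.7% of all features. It held for 68.4% of protein-coding features with mean signals above 8.38, whose median change was 0.11. PRRX1 (0.26), NOTCH2 (0.23) and TGFBR2 (0.22) were called higher, as was HAND1 (0.22) of the noradrenergic markers. ISL1 overlapped between the groups (-0.034). Of all features 9.41% were called higher. The summed linear signals of the mesenchymal-type markers were 7881 and 8008 in TCDD cells, against 7218 and 7193 in DMSO cells. Those of the noradrenergic markers were 10553 and 10661 in TCDD cells, against 10441 and 9569 in DMSO cells. The part of cell state in the changes below was not tested. Of 8 keratinocyte markers 4 were measured, SFN, PKP1, GRHL3 and CSTA, and these read 6.18 to 9.40. As a level for genes that these cells are not known to use, the 95th percentile of the mean signals of 71 olfactory receptor features was taken, which was 8.38.

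The S100A genes were not brighter as a group than the keratinocyte-type genes. Mean signals of the 17 S100A features ran from 6.88 to 10.74 with a median of 8.21, and those of the 44 keratinocyte-type features from 5.78 to 9.82 with a median of 8.23. Above the olfactory level lay 8 of 17 S100A features (47.1%) and 19 of 44 keratinocyte-type features (43.2%). The naming of the groups as bright S100A genes and dim keratinocyte genes therefore described only some members. Signals of different features depend on their probes as well as on RNA, so a bright feature need not mean an abundant transcript.

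In TCDD cells most keratinocyte-type members read lower than in DMSO cells, while the S100A members lay on both sides of 0. Of the 44 keratinocyte-type members 38 had a negative change (TCDD mean minus DMSO mean), with a median of -0.17, and of the 17 S100A members 9 had one, with a median of -0.043. The median over all features was 0.023. A feature was called when limma's adjusted p over all 13493 features was under 0.05. By that rule 17 keratinocyte-type members were called lower (38.6%) and 0 higher, and 2 S100A members were called lower and 0 higher. At an unadjusted p under 0.05 by limma, 30 of the 61 members were lower and 3 were higher, against 16.7% and 22.8% of all features. Over all features 17.4% were called, 8.01% as lower and 9.41% as higher. Since the region was chosen with this contrast in view, nothing is read from the members' share.

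The plain order of the arrays gave a similar picture. Both TCDD arrays lay below both DMSO arrays for 32 of 44 keratinocyte-type members and 9 of 17 S100A members, against 30.9% of all features. Both TCDD arrays lay above both DMSO arrays for 3 keratinocyte-type and 4 S100A members, against 40.7% of all features. DMSO replicate 2 read higher than DMSO replicate 1 for 36 of the 44 keratinocyte-type members, with a median difference of 0.082. That was so for 13 of 17 S100A members and for 6937 of all 13493 features, where the median was 0.0051. Among protein-coding features at or below 8.38 it was so for 1218 of 1620, with a median of 0.056. Without DMSO replicate 2 the number of members called lower was 5, namely HRNR, SPRR1A, SPRR1B, SPRR2A and SPRR2F. It was 10 without TCDD replicate 1, 12 without TCDD replicate 2 and 26 without DMSO replicate 1. The median change of the keratinocyte-type members stayed negative in each of these, between -0.23 and -0.12. Fewer cells with a transcript and less of it per cell cannot be told apart in such bulk RNA.

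**Figure D1:**
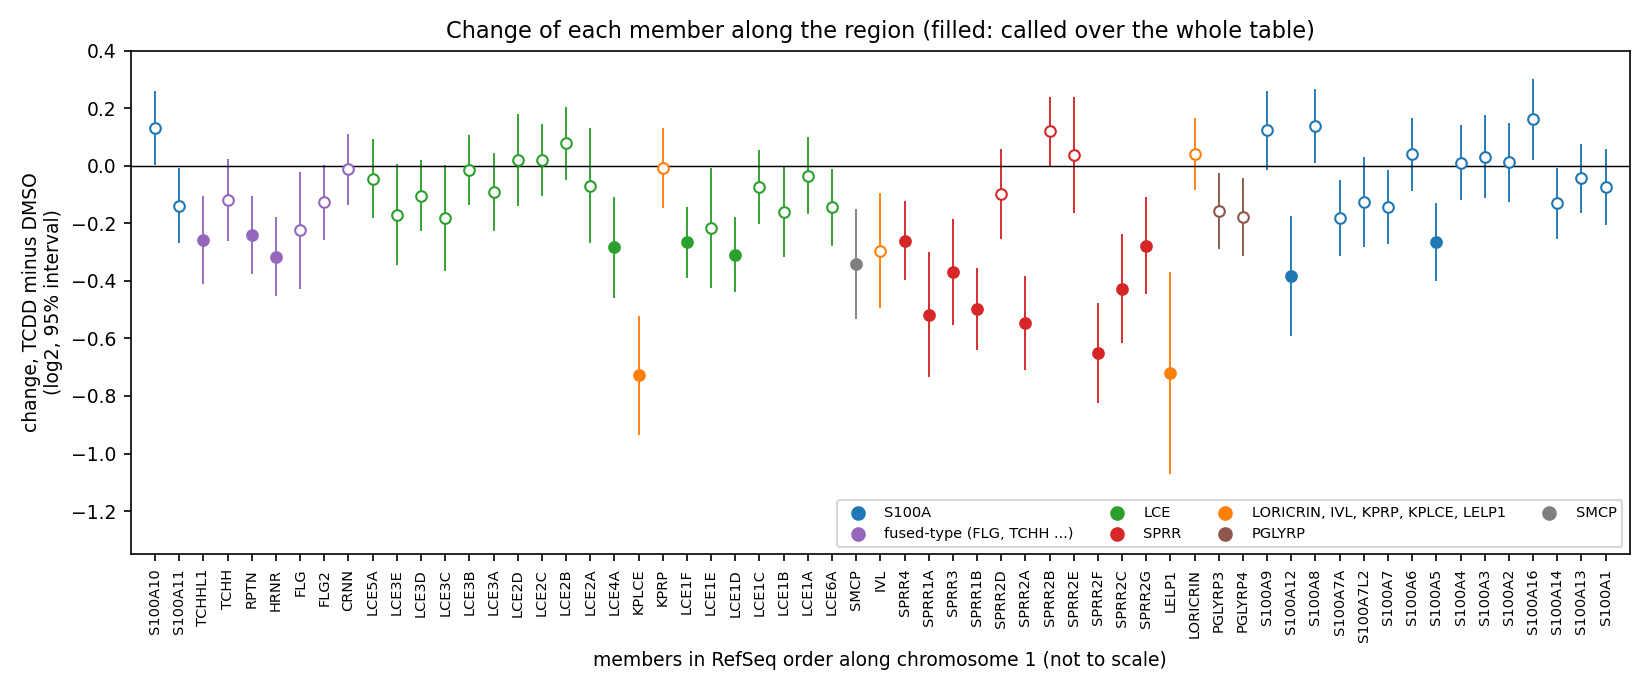
The horizontal axis lists the 61 members in their RefSeq order along chromosome 1, and the vertical axis gives the log2 change of TCDD over DMSO with its 95% interval. Filled points were called over the whole table. The SPRR genes and LELP1 hold 9 of the 19 filled points, with KPLCE apart among the LCE genes. The S100A genes at both ends lie on both sides of 0, with S100A12 and S100A5 filled at -0.38 and -0.26.

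The small proline-rich genes were the family with the lowest median. SPRR proteins are short cross-bridges of the cornified envelope, and SPRR2C is a transcribed pseudogene in RefSeq. Of 11 SPRR features 8 were called lower and 0 higher, with a median change of -0.37. Of all features 8.01% were called lower, and of olfactory receptors 31.0%. SPRR2F, among those called, was also among the genes whose values chose the region. Without DMSO replicate 2 there were 4 called lower, with a median of -0.27, and 6 when either TCDD array was left out or under quantile normalization. SPRR2F read 6.95 and 7.03 on the TCDD arrays, against 7.73 and 7.56 on the DMSO arrays. The change was -0.65 (SE 0.072), and DMSO signals were 1.57-fold those of TCDD. SPRR2A read 7.97 and 7.95 in TCDD cells, against 8.43 and 8.59 in DMSO cells (change -0.55, SE 0.067). For both genes both TCDD arrays lay below both DMSO arrays. Their mean signals, 7.32 for SPRR2F and 8.24 for SPRR2A, were below the olfactory level of 8.38, and 7 of the 11 SPRR features lay at or below it. The same order of arrays held for 63.4% of olfactory receptors, with a median change of -0.19, and for 30.9% of all features.

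SPRR1A and SPRR1B, known as squamous differentiation markers, lay above the olfactory level. SPRR1A read 9.27 and 9.28 in TCDD cells and 9.66 and 9.93 in DMSO cells, a change of -0.52 (SE 0.090). SPRR1B read 8.84 and 8.91 in TCDD cells, against 9.33 and 9.41 in DMSO cells, a change of -0.50 (SE 0.059). The TCDD arrays agreed closely for SPRR1A, whereas its DMSO arrays differed by 0.27.

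SPRR2C read 7.59 and 7.65 in TCDD cells and 7.95 and 8.15 in DMSO cells (change -0.43, SE 0.078). SPRR3, best known from the lining of the mouth and oesophagus, read 8.59 and 8.56 in TCDD cells and 8.84 and 9.05 in DMSO cells (change -0.37, SE 0.076). For both genes DMSO replicate 2 was the highest array. Their calls were lost without DMSO replicate 2, where the changes were -0.32 and -0.27, and that of SPRR3 also under quantile normalization (-0.40). SPRR2G (-0.28) and SPRR4 (-0.26) were the other 2 that were called lower. Both lost their calls when DMSO replicate 2 or either TCDD array was left out (-0.31 to -0.19), and SPRR2G also under quantile normalization (-0.25) and cyclic loess (-0.24).

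The remaining 3 SPRR2 genes were not called. SPRR2B read 7.02 and 7.00 in TCDD cells and 6.89 and 6.89 in DMSO cells, so that both TCDD arrays lay above both DMSO arrays (change 0.12, SE 0.050). SPRR2E read 6.99 and 7.00 in TCDD cells and 6.84 and 7.08 in DMSO cells, with overlapping groups. SPRR2D read 7.40 and 7.37 in TCDD cells, against 7.41 and 7.55 in DMSO cells (change -0.098, SE 0.064), so that both TCDD arrays lay below both DMSO arrays. The SPRR2 genes are near copies of each other, and whether each feature reads a single gene was not tested. Between them the SPRR2 features spanned changes from -0.65 to 0.12.

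**Figure D2:**
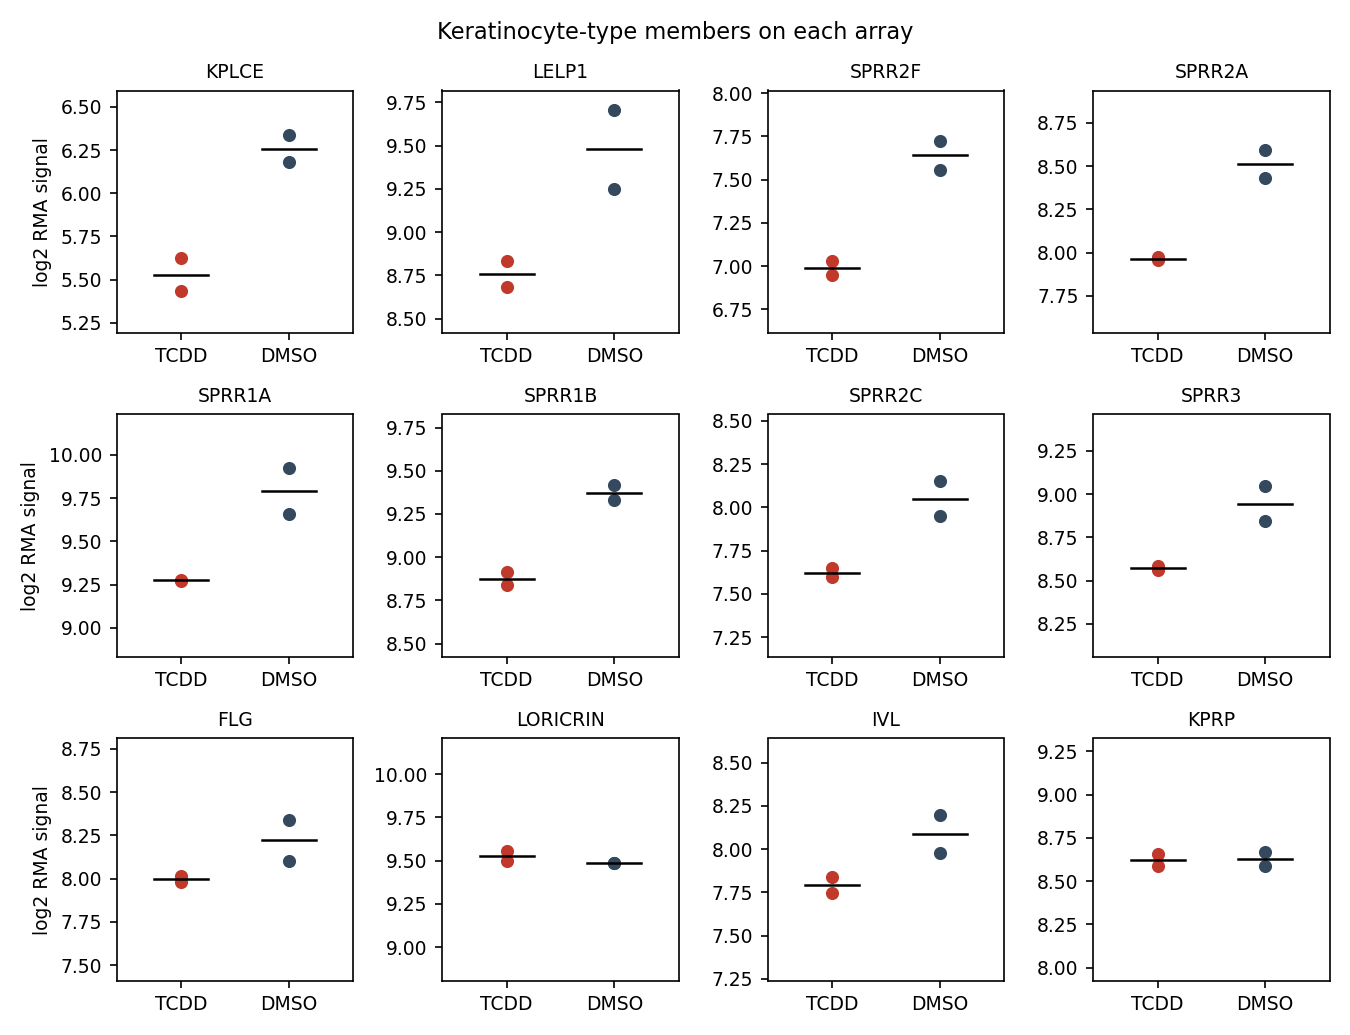
Each panel shows the log2 RMA signal of a gene on the 2 TCDD and 2 DMSO arrays as points, with a bar at each mean, and all panels span 1.4 log2 units. The 8 genes of the upper rows were picked for the largest changes among the keratinocyte-type members on these same arrays. In each of them both TCDD arrays lie below both DMSO arrays, an order that held for 30.9% of all features. LORICRIN and KPRP show nearly level means.

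RefSeq promoters (build GRCh38.p14, 250 bases before and 50 after the start) were found for 56 of the 61 members, among them 8 SPRR genes. The entries of LCE1B, SPRR2C, SPRR2D, SPRR2E and S100A7L2 were not found. Each sequence was searched on both strands for GCGTG, the core of the AhR response element, for TGANTCA and for TATAAA, the TATA box. TGANTCA, where N is any base, is a loose form of the site of the AP-1 factors, whose middle base is C or G. Matches with A or T there, such as TGATTCA in LELP1 and TGAATCA in SPRR1B, were counted too. Overlapping matches of a motif were all counted, and matches of different motifs overlapped in 0 members. Promoters were at hand for 7 SPRR genes called lower, and 5 of them are shown, those of SPRR1A, SPRR1B, SPRR2A and SPRR2F with the largest changes and that of SPRR4 without a TGANTCA match. Those of SPRR2B, which was not called, and of LELP1, a neighbour that was called lower, are shown beside them. That of S100A11, the S100A member with the highest signal, is shown for contrast. Capitals mark the motif matches.
SPRR2A (chr1:153057463-153057762, minus strand): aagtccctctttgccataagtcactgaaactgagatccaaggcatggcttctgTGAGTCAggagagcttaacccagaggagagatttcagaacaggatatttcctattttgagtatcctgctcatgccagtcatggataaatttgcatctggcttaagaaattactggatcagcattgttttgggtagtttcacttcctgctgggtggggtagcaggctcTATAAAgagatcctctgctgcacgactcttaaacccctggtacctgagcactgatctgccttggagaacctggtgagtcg
SPRR2F (chr1:153113467-153113766, minus strand): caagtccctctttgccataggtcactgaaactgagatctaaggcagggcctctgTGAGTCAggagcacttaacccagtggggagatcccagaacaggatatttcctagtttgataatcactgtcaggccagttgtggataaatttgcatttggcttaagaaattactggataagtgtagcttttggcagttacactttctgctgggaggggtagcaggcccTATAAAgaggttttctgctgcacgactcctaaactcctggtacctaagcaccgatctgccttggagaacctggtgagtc
SPRR2B (chr1:153071562-153071861, minus strand): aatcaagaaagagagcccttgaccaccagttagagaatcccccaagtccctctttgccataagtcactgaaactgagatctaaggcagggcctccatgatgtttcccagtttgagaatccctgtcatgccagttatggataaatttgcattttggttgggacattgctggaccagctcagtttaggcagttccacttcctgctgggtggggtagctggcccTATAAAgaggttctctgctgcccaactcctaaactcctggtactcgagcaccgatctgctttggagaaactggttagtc
SPRR1A (chr1:152983831-152984130, plus strand): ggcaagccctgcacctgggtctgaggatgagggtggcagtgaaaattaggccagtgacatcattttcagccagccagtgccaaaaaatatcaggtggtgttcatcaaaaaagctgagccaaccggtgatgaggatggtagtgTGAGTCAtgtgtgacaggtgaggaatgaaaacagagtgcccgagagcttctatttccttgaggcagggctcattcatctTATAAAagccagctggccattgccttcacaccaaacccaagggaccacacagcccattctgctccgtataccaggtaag
SPRR1B (chr1:153030953-153031252, plus strand): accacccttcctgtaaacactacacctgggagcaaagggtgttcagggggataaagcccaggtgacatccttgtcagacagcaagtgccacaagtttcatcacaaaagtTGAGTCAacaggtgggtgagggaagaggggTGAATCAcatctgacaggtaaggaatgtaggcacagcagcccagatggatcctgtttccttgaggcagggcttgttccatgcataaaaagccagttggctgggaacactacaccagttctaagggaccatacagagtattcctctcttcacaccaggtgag
SPRR4 (chr1:152970398-152970697, plus strand): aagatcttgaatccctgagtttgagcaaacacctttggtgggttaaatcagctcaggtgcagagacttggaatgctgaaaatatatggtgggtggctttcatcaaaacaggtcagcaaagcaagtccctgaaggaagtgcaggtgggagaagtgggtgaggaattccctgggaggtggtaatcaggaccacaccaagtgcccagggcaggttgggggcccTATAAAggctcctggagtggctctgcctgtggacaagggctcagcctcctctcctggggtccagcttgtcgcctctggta
LELP1 (chr1:153203180-153203479, plus strand): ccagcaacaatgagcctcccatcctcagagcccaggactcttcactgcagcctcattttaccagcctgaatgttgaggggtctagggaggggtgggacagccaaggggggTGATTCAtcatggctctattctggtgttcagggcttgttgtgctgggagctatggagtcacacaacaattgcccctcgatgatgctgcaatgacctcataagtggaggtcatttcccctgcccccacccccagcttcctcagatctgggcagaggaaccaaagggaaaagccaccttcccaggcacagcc
S100A11 (chr1:152036955-152037254, minus strand): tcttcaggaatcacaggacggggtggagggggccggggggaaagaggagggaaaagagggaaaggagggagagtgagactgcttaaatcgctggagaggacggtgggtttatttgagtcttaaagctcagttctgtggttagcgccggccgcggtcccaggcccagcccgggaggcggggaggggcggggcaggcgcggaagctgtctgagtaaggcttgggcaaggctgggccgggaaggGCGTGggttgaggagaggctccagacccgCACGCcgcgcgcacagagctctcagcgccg

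The GCGTG core occurred in 0 of 8 SPRR promoters, in 1 of the 18 promoters of members called lower, in 5 of 16 S100A promoters and in 5 of 40 keratinocyte-type promoters. It occurred in 36.5% of all 35116 promoters of this length. S100A11 held 2 matches and S100A10 held 1. TGANTCA occurred in 6 of 8 SPRR promoters, 15 of 40 keratinocyte-type promoters and 3 of 16 S100A promoters, against 7.71% of all promoters. In SPRR2A it began 197 bases before the start and in SPRR2F 196 bases before it, while SPRR2B, not called, and SPRR4, called lower, held no match in this window. TGANTCA occurred in 10 of the 18 promoters of members called lower, and in 18 of all 56 member promoters (32.1%). Members not called, among them LORICRIN, CRNN, S100A2 and S100A3, held it too. TATAAA occurred in 7 of 8 SPRR promoters and in 11.5% of all. The promoters of SPRR2A and SPRR2F were 87.1% identical in a global alignment, those of SPRR2B and SPRR2F 65.8%, those of SPRR2A and SPRR2B 63.3%, and those of SPRR1A and SPRR1B 65.1%. A match is a run of letters, and no binding was measured here.

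Among the single envelope genes, KPLCE and LELP1 were lower and loricrin was level. KPLCE, a gene with parts like KPRP and LCE, had a low signal of 5.43 and 5.63 in TCDD cells, against 6.18 and 6.34 in DMSO cells. Its change was -0.73 (SE 0.086), and DMSO signals were 1.66-fold those of TCDD. LELP1, a proline-rich gene beside the SPRR genes, read 8.69 and 8.83 in TCDD cells, against 9.25 and 9.71 in DMSO cells (change -0.72, SE 0.14). The LELP1 change had the widest 95% interval of those named here, from -1.07 to -0.37, and its DMSO arrays differed by 0.46.

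The calls of KPLCE and LELP1 were lost without DMSO replicate 2, where the changes were -0.65 and -0.49. That of LELP1 was also lost under quantile normalization (-0.79) and cyclic loess (-0.80). IVL read 7.84 and 7.75 in TCDD cells and 7.98 and 8.19 in DMSO cells (change -0.30, SE 0.083). It was not called, but was called under 6 of the alternatives tried. LORICRIN, the main protein of the envelope, read 9.55 and 9.50 in TCDD cells and 9.49 and 9.48 in DMSO cells (change 0.042, SE 0.052). KPRP, a keratinocyte proline-rich protein, read 8.58 and 8.65 in TCDD cells, against 8.59 and 8.67 in DMSO cells (change -0.0086, SE 0.058). Neither was called, and the 95% interval of LORICRIN ended at -0.084 on the low side.

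The fused-type genes, which join an S100 domain to long repeats, read lower in TCDD cells. Of the 7 features, 6 lay at or below the olfactory level. Of protein-coding features at or below it, 67.3% had negative changes and 8.40% were called lower. Of olfactory receptors, 88.7% had negative changes and 31.0% were called lower. All 7 fused-type genes had negative changes with a median of -0.22, and 3 were called lower. These were HRNR (-0.32, SE 0.056), encoding hornerin, TCHHL1 (-0.26, SE 0.063) and RPTN (-0.24, SE 0.056), encoding repetin. Under quantile normalization none of the 3 was called (changes of -0.26 to -0.20). HRNR was also not called after cyclic loess (-0.25) or without TCDD replicate 1 (-0.29), and TCHHL1 and RPTN lost their calls when DMSO replicate 2 or either TCDD array was left out (-0.27 to -0.19). HRNR read 6.29 and 6.34 in TCDD cells, against 6.67 and 6.59 in DMSO cells. FLG, encoding filaggrin, read 7.98 and 8.01 in TCDD cells and 8.10 and 8.34 in DMSO cells (change -0.22, SE 0.084). FLG was not called, and DMSO replicate 2 stood above its other 3 arrays. FLG2 and TCHH, the trichohyalin gene of hair follicles, differed by -0.13 and -0.12, and cornulin (CRNN) by -0.012.

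The late cornified envelope genes lay closer to 0 on the deposited values. Their features were brighter, with a median signal of 8.87 against 7.14 for the fused-type genes. Of protein-coding features above 8.38, 17.6% had negative changes, against 67.3% of those at or below it. The part of signal in this difference between the families was not tested. Of 18 LCE features 3 were called lower and 0 higher, with a median change of -0.098 and a range from -0.31 to 0.078. LCE1D (-0.31, SE 0.054), LCE4A (-0.28, SE 0.072) and LCE1F (-0.27, SE 0.051) were the 3. Shares called lower were 8.01% of all features, 1.67% of protein-coding features above 8.38 and 8.40% of those at or below it. LCE1D and LCE1F lost their calls when DMSO replicate 2 or either TCDD array was left out (changes of -0.31 to -0.25). LCE4A was called without TCDD replicate 2 but not without any of the other 3 arrays (-0.32 to -0.20), nor under quantile normalization or cyclic loess (both -0.27). LCE1D read 9.09 and 9.08 in TCDD cells, against 9.35 and 9.43 in DMSO cells. The 4 LCE2 genes lay between -0.069 and 0.078, whereas the 6 LCE1 genes lay between -0.31 and -0.034. LCE3B, the brightest keratinocyte-type feature, read 9.80 and 9.82 in TCDD cells and 9.84 and 9.82 in DMSO cells. Of the other members, SMCP, which encodes a sperm mitochondrial protein, was called lower (-0.34, SE 0.079), but not without DMSO replicate 2 (-0.24) or TCDD replicate 1 (-0.30), nor under quantile normalization (-0.29) or cyclic loess (-0.27). PGLYRP3 and PGLYRP4, which encode proteins that bind bacterial cell walls, differed by -0.16 and -0.18 and were not called.

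The S100A members above the olfactory level differed by at most 0.16 on the log2 scale, and 0 of the 8 were called. S100A11, whose protein binds annexins and is also found in the cornified envelope, read 10.64 and 10.70 in TCDD cells, against 10.79 and 10.83 in DMSO cells (change -0.14, SE 0.054). Its groups did not overlap, and it was called lower after quantile normalization (-0.28) and cyclic loess (-0.26). S100A16 read 9.78 and 9.81 in TCDD cells, against 9.69 and 9.58 in DMSO cells (change 0.16, SE 0.058). It was called higher without DMSO replicate 1 (0.22).

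S100A10, the partner of annexin A2, read 9.19 and 9.20 in TCDD cells and 9.03 and 9.10 in DMSO cells (change 0.13, SE 0.053). S100A14 read 8.94 and 8.95 in TCDD cells and 9.05 and 9.09 in DMSO cells (change -0.13, SE 0.051). S100A10 was higher and S100A14 lower on both TCDD arrays, by about the same size. S100A6, encoding calcyclin, read 9.06 and 9.03 in TCDD cells and 9.03 and 8.98 in DMSO cells (change 0.041, SE 0.052).

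S100A2, known from basal keratinocytes, read 8.93 and 8.93 in TCDD cells and 8.87 and 8.97 in DMSO cells. S100A1, known from heart muscle, read 8.55 and 8.56 in TCDD cells and 8.59 and 8.67 in DMSO cells. S100A13, which takes part in the release of FGF1, read 8.55 and 8.56 in TCDD cells and 8.59 and 8.60 in DMSO cells. The changes of these 3 genes were 0.012, -0.073 and -0.043, and only S100A2 had overlapping groups.

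**Figure D3:**
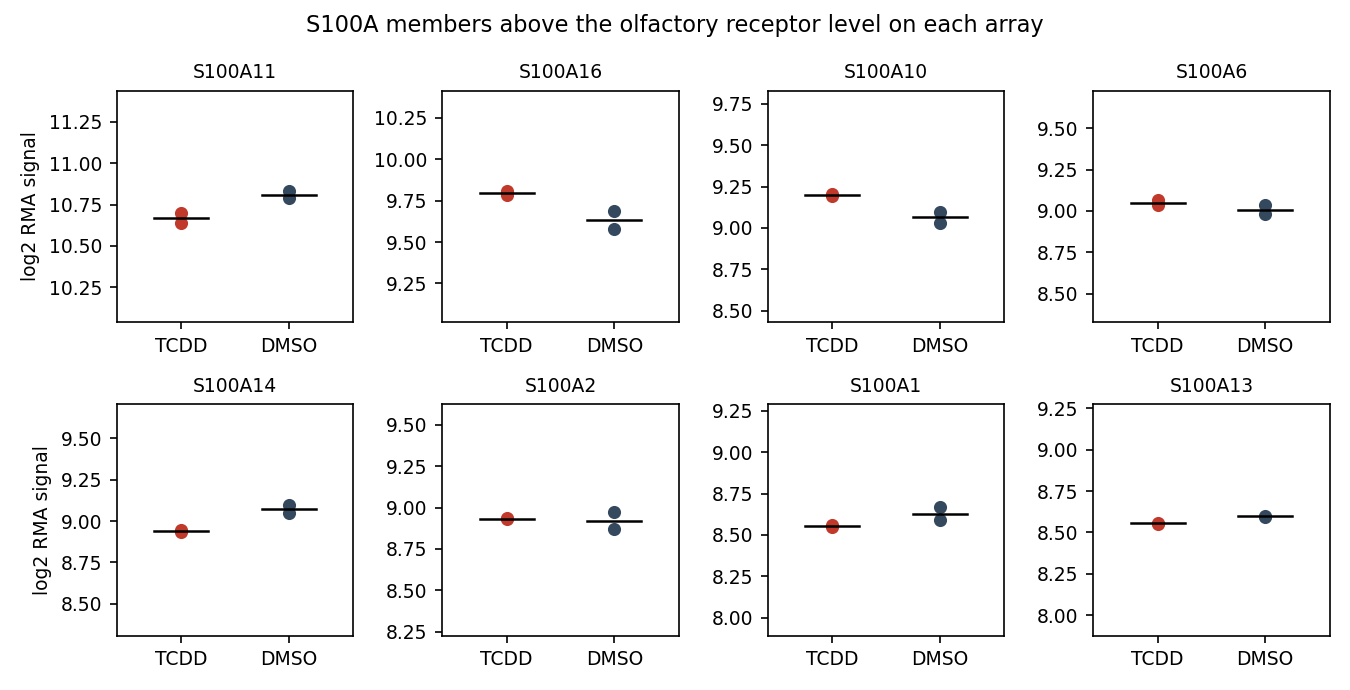
Each panel shows the log2 RMA signal of an S100A gene on the 2 TCDD and 2 DMSO arrays as points, with a bar at each mean, on panels of 1.4 log2 units. The means of the groups differ by at most 0.16, upwards in S100A16 and S100A10 and downwards in S100A11 and S100A14.

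The 9 dimmer S100A members split by gene. S100A8 and S100A9, the subunits of calprotectin in neutrophils and stressed epithelium, were higher on both TCDD arrays. S100A8 read 7.80 and 7.77 in TCDD cells and 7.62 and 7.68 in DMSO cells (change 0.14, SE 0.053), and S100A9 differed by 0.12 (SE 0.057). Neither was called, though S100A8 was after cyclic loess. S100A12, a further neutrophil gene between them in RefSeq order, read 6.84 and 6.83 in TCDD cells, against 7.09 and 7.34 in DMSO cells, and was called lower (-0.38, SE 0.086). S100A5 was also called lower, at 8.04 and 8.11 in TCDD cells and 8.32 and 8.36 in DMSO cells (-0.26, SE 0.056), but lost its call when either TCDD array or DMSO replicate 2 was left out. The changes of S100A5 were then -0.30 to -0.23. The S100A12 call was lost without DMSO replicate 2 (-0.26) and under quantile normalization (-0.33). S100A7, encoding psoriasin, its close copy S100A7A and the pseudogene S100A7L2 lay between -0.18 and -0.13, while S100A4 and S100A3 differed by 0.010 and 0.031.

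The change of a feature moved with its signal in the whole table, so the members were set beside features of like signal. In 20 bins of signal the median change of all features ran from -0.069 in a dim bin to 0.13 in a bright bin. From each member the median change of the 500 features nearest in signal was taken away, an alternative added after the data had been seen. The median of the keratinocyte-type members was then -0.19, and 41 of 44 lay below 0. The median of the S100A members was -0.055, with 11 of 17 below 0. S100A16 and S100A10 came to 0.028 and 0.042, whereas S100A11 came to -0.26. For SPRR1A and LELP1 the values were -0.64 and -0.81. The S100A median lay above the keratinocyte-type median by 0.13 on the deposited values and by 0.14 after this step, and by 0.097 to 0.20 in the 4 pairs of a TCDD and a DMSO array.

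**Figure D4:**
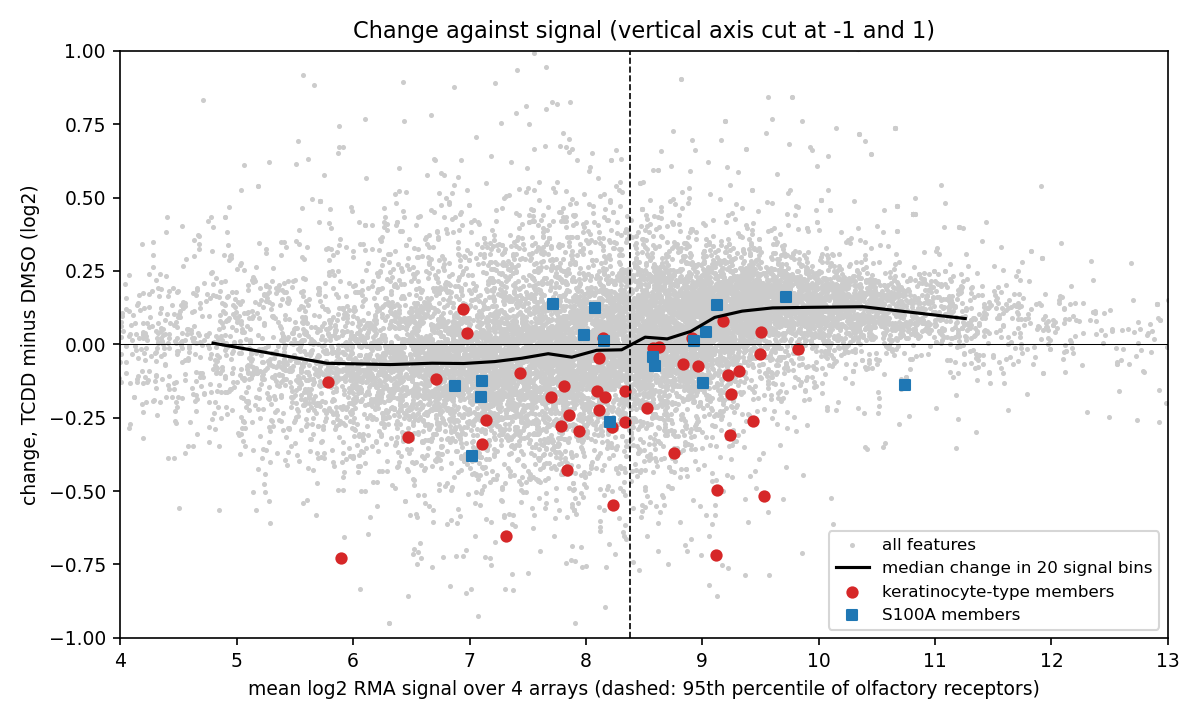
The horizontal axis is the mean log2 signal over the 4 arrays and the vertical axis the log2 change of TCDD over DMSO. The black line is the median of all features in 20 signal bins and the dashed line is the olfactory level of 8.38. Keratinocyte-type members lie mostly under the black line on both sides of the dashed line.

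Lists of other genes gave the surroundings of these values. Of 71 olfactory receptors, 22 were called lower and 1 higher, with a median change of -0.19, beside -0.17 for the keratinocyte-type members. The signals of these sets were not alike, since the median signal was 8.23 for the keratinocyte-type members and 7.00 for the olfactory receptors, of which 4 lay above 8.38. Of 1620 protein-coding features at or below 8.38, 8.40% were called lower and the median was -0.053. Of 3471 protein-coding features above 8.38, 1.67% were called lower and the median was 0.11. Of the 25 keratinocyte-type members at or below 8.38, 11 were called lower with a median of -0.22, and of the 19 above it 6 were, with a median of -0.092. No test of these differences was made.

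Keratinocyte genes outside the region had a median closer to 0. Of 41 listed genes 22 were measured, 15 of them at or below the olfactory level, where the median of protein-coding features was -0.053. Of the 22, 1 was called lower and 0 higher, and the median was -0.055. The 1 was IL36B, an epithelial cytokine of the interleukin-1 family (-0.29, SE 0.053). CSTA, which encodes the envelope protein cystatin A, differed by -0.18 (SE 0.059) and SFN, encoding stratifin, by -0.042. The 4 keratinocyte markers had summed linear signals of 1312 and 1314 in TCDD cells, against 1385 and 1376 in DMSO cells. Of these markers 4 of 4 had negative changes with 0 called, and 2 lay above the olfactory level. Negative changes were found in 67.3% of protein-coding features at or below that level and in 17.6% above it. The 44 keratinocyte-type members summed to 14975 and 15246 in TCDD cells, against 16700 and 17880 in DMSO cells. Myeloid markers, of which 5 of 8 were measured, summed to 1227 and 1236 in TCDD cells, against 1297 and 1329 in DMSO cells. Of these 5 of 5 had negative changes, and FCGR3A was called lower (-0.29, SE 0.056). Negative changes were found in 3 of 3 measured endothelial markers and in 0 of 2 melanocyte markers, with 0 called in either list. The part of other cells in the result was not tested.

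Genes that flank the region mostly read higher in TCDD cells, with negative changes in 6 of 26. Of 28 listed genes these 26 were measured, of which 4 were called higher and 1 lower, and their median was 0.11. The 4 were SNAPIN (0.26), CHTOP (0.25), SNX27 (0.25) and TDRKH (0.21), and the 1 was C2CD4D (-0.32). A list of S100 genes and annexins that are no members also held S100PBP and CACYBP, which are neither. Of its 10 measured genes, the membrane-binding ANXA6 was called higher (0.26, SE 0.060) and 0 were called lower, with a median of 0.051. S100Z differed by -0.20 (SE 0.058) and was not called. Most flanking genes (21 of 26) lay above the olfactory level, where changes over all features were mostly positive.

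**Figure D5:**
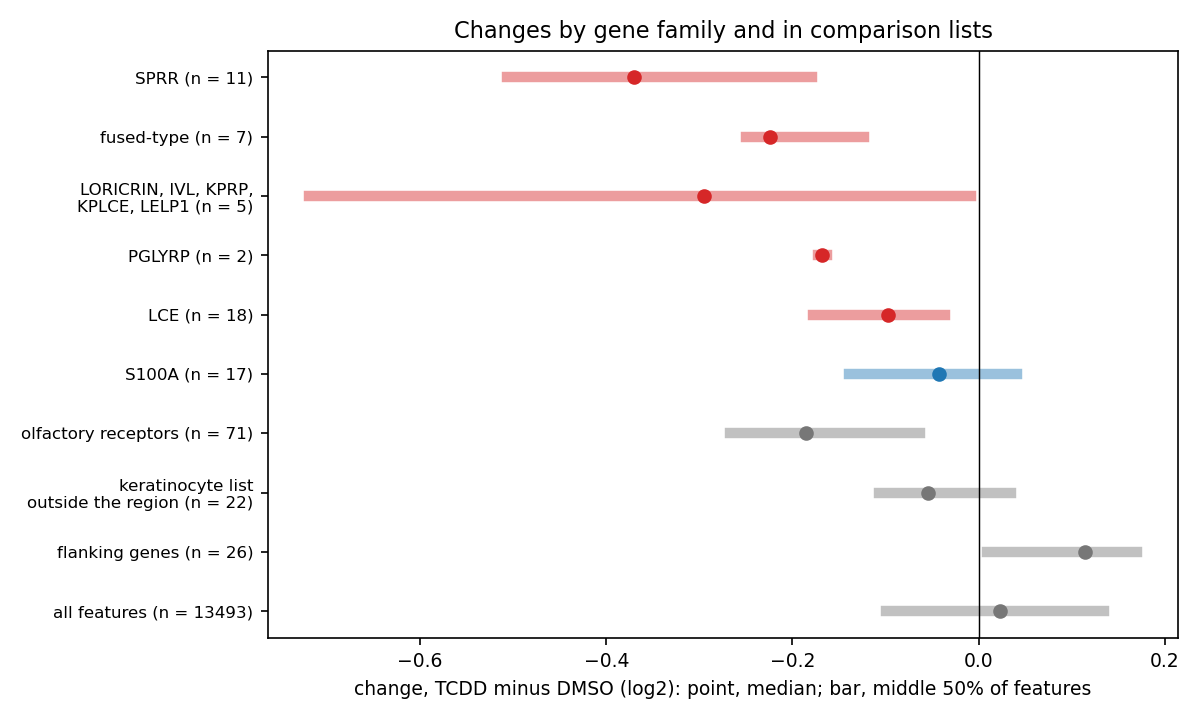
Points give the median log2 change of TCDD over DMSO, and bars the middle 50% of features, for 5 of the member families (SMCP is 1 gene), the S100A genes, comparison lists and all features. SPRR genes are lowest at -0.37, the olfactory receptors stand at -0.19 and the flanking genes at 0.11.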

How the data were processed

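The data were log2 signals per feature on 4 Affymetrix Human Transcriptome Arrays, made by the authors with RMA, per the submitters' processing notes; its settings, and the genome build, are not given in the sources used here. Only features of chromosomes 1 to 5 were analysed here. Groups and replicate numbers came from the titles, and no label names separate cultures, so p-values measure only the spread between these arrays. Members and lists were chosen with earlier results of these data known. Symbols were those of the platform annotation, and all 61 members matched RefSeq (GRCh38.p14) by Entrez identifier.

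Each of 13493 features was fitted with limma 3.58.1 in R 4.3.3 (lmFit and eBayes, TCDD minus DMSO, 2 residual and 4.27 prior degrees of freedom), with Benjamini-Hochberg adjustment over all features. The function was tested on simulated data. Standard errors (SE) are moderated and intervals are at 95%. No set test was run. In lists a gene was represented by its brightest feature. The genes given on every array were, by rule, S100A genes above the olfactory level, the other members with the 8 largest changes, and FLG, LORICRIN, IVL and KPRP. Further members were named after their values were seen. Same-numbered arrays deviated together with a correlation of 0.037 across features, and the fit had no block.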

Additional observations from a re-analysis of the deposited data

How the results depend on the processing

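With the replicate number as a block (replicate block), 3634 features were called in place of 2351, and 22 members were called lower in place of 19, with FLG and IVL among them. The numbers share no label of a common culture or day. Quantile normalization gave 1478 called features and 11 members called lower. Leaving out each array in turn gave 644 to 4661 called features, 5 to 26 members called lower and 0 to 1 called higher. Cyclic loess gave 1 member called higher (S100A8) and 17 lower. An unadjusted p under 0.05 by limma gave 30 lower and 3 higher. With the dimmest 25% of features removed, 52 members were left and the S100A median turned to 0.011. The median of the keratinocyte-type members stayed between -0.23 and -0.12, and the difference of the medians between 0.090 and 0.19, in all alternatives run. Median centring and a trended robust prior each gave 20 members called lower. Among the 20 genes given on every array, no called change turned its sign. No array weights, probe-level settings or background corrections could be varied, and with 2 arrays per group 1 array decides many calls.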
